A study of Mus musculus with 3 samples.

Results

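Marrow stroma and endothelium were looked for among single cells sorted from mouse bone marrow, and 81 of the 19762 barcodes kept as cells were members. A kept barcode had at least 1000 unique molecular identifiers (UMIs, which count distinct mRNA tags) over at least 500 genes, with mitochondrial UMIs at 10% or less. A member held at least 3 UMIs over Cdh5, Kdr, Cxcl12, Lepr, Col1a1 and Col1a2, with primary granule genes (Mpo, Elane, Prtn3) under 0.5% and basophil proteases (Mcpt8, Prss34) under 0.2% of its UMIs and no Cd3e, Cd3d or Cd3g. The members were thus chosen by the UMIs of these 6 genes, and all groups below were formed from the same cells, so levels within them are a description and carry no test.

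Bone marrow stroma is the non-blood scaffold in which blood cells form. Its reticular cells secrete Cxcl12, a chemokine that holds stem and progenitor cells in the marrow, and Kitl, the stem cell factor that keeps them alive, and they carry the leptin receptor Lepr. Osteoblasts lay down the type I collagen of bone, and endothelial cells line the sinusoids and arterioles that carry blood through the marrow.

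The study set a Lztr1 knockout (Lztr1fl/fl;Mx1Cre+) and a Rit1-M90I mutant (Rit1M90I/+;Mx1Cre+) against a control (Rit1M90I/+Mx1Cre-), with 1 library per genotype. LZTR1 is an adaptor that marks RIT1, a RAS-like GTPase, for destruction. All mice were given 3 doses of pIpC, a synthetic RNA that induces interferon and through it the Mx1 promoter, at 12 mg/kg when 8 weeks old, and marrow was taken 4 weeks later. The sort took live cells negative for lineage markers (CD3 and B220 of lymphocytes, CD11b and Gr1 of myeloid cells, Ter119 of red cells), a gate with no positive marker of stroma; how many mice gave each library is not stated. The control carries the Rit1-M90I allele without Cre, although its title calls it wild type, so the genotype and the presence of Mx1-Cre cannot be told apart in either comparison. The Mx1 promoter is not bound to a cell type, and whether it recombined the alleles in stroma was not measured.

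The libraries held 2422 kept cells for the Lztr1 knockout, 9817 for Rit1-M90I and 7523 for the control. The members numbered 20, 42 and 19 in the same order. They were shallower than the other 19681 kept cells, with a median of 2598 against 7374 UMIs and 1509 against 2453 genes. No member barcode was shared between libraries, and 7, 2 and 12 other kept barcodes were shared between pairs of libraries. In kept cells that were no members, Lztr1, on chromosome 16 (17508688 to 17526333, mm10), had 6.32 counts per 1000000 UMIs (CPM; 95% Poisson interval 5.44 to 7.30) in the Lztr1 knockout library, 15.3 CPM (14.5 to 16.1) in Rit1-M90I and 17.4 CPM (16.4 to 18.5) in the control. The sources do not say whether the 3' tags counted lie in the deleted stretch. All members together held 6 Lztr1 UMIs, 1 in the Lztr1 knockout, 2 in Rit1-M90I and 3 in the control, and 8 Rit1 UMIs, too few to check a genotype in these cells.

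The data bore out the stroma of the label, and little of the endothelium. Members were split by whether Cdh5 and Kdr, the VE-cadherin and VEGF receptor of endothelial cells, outnumbered Cxcl12 and Col1a1. By that count 7 were endothelial and 74 mesenchymal, an endothelial share of 8.64% (95% exact interval 3.55 to 17.0). The endothelial cells numbered 0 in the Lztr1 knockout, 3 in Rit1-M90I and 4 in the control, and 0 of 2422 kept cells allows a share of up to 0.124% in the Lztr1 knockout. Each of the 7 met the rule with only 3 or 4 UMIs. Between the split groups 874 of 4810 genes (18.2%) were at least 2-fold higher in endothelial members and 1101 (22.9%) in mesenchymal members, on the log2(CPM + 10) scale.

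Of these 7 cells, 3 control cells of 12119 to 14192 UMIs held 2 or 3 Kdr UMIs and no Cdh5 beside 38 to 106 UMIs of Pf4, the platelet factor of megakaryocytes, and 11 to 15 of Itga2b, their fibrinogen receptor subunit. A further 2 Rit1-M90I cells held 3 Cdh5 UMIs and no Kdr beside 20 and 26 UMIs of Irf8, 20 and 35 of Ly6d and 3 and 10 of Siglech, a lectin of plasmacytoid dendritic cells. The remaining 2 were shallow cells in which pan-endothelial markers took a larger share of UMIs, 1.08% and 1.81%. In the other 5 that share was 0.0775% to 0.130%, although the 3 control cells with Pf4 held 7 to 13 pan-endothelial UMIs beyond Cdh5 and Kdr. A control cell of 1435 UMIs held Cdh5 with 3 UMIs each of Stab1 and Stab2, the scavenger receptors of sinusoids, 3 of Emcn, 4 of Cldn5 and 9 of Adamts5. A Rit1-M90I cell of 1014 UMIs held 3 UMIs of Kdr, 4 of Cldn5, 5 of Mmrn1 and 2 of Prox1, the transcription factor of lymphatic endothelium. Megakaryocyte markers took 0.493% of the UMIs of this Rit1-M90I cell, without Pf4 or Itga2b, against 0.528% to 1.01% in the 3 control cells with Pf4. In a cell of 1014 UMIs that share rests on few UMIs, and the list holds Cavin2, a gene of caveolae as well as platelets. All 14 arterial markers were at 0 in the 7 cells. Over the 7 cells pooled, megakaryocyte markers took 0.600% of UMIs and pan-endothelial markers, with the 2 splitting genes included, 0.161%.

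Of 4055 genes compared, 150 (3.7%) were at least 4-fold higher in the 7 than in other kept cells. Among the highest was Cavin2, of caveolae and platelets, at 671 CPM against 5.04 CPM in other kept cells and 253 CPM in 250 kept cells gated on megakaryocyte genes. Plek and Slc14a1, at 556 and 403 CPM, stood at 431 and 334 CPM in the megakaryocyte-gated cells. Cldn5, a tight junction gene of endothelium, had 8 UMIs in 2 of the 7 cells and 0 in the megakaryocyte-gated cells. Without the control library, which leaves 3 shallower cells, the count was 974.

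In the 74 mesenchymal members 460 of 4089 genes (11.2%) were at least 4-fold higher than in other kept cells. These members were divided once more, after their values were seen. A cell was called Cxcl12-led or Col1a1-led, by whichever of these genes was higher, where at least 1% of its UMIs came from 39 stroma markers outside the rule. There were 56 Cxcl12-led cells (15 in the Lztr1 knockout, 33 in Rit1-M90I, 8 in the control) and 9 Col1a1-led cells (1, 5 and 3). The lowest cell over the line had 1.20% and the highest under it 0.921%, against a median of 0.0184% in other kept cells. The number of rule UMIs left a gap: 69 members had 10 or more, none had 5 to 9, and 12 had 3 or 4. That gap did not match the 1% line. In the Lztr1 knockout a Cxcl12-led cell had 4 rule UMIs, and a cell under the line had 96 rule UMIs. Outside the rule, 84 kept barcodes had 2 such UMIs, and 16 with 3 or more were removed by the limits on blood genes.

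**Figure D1:**
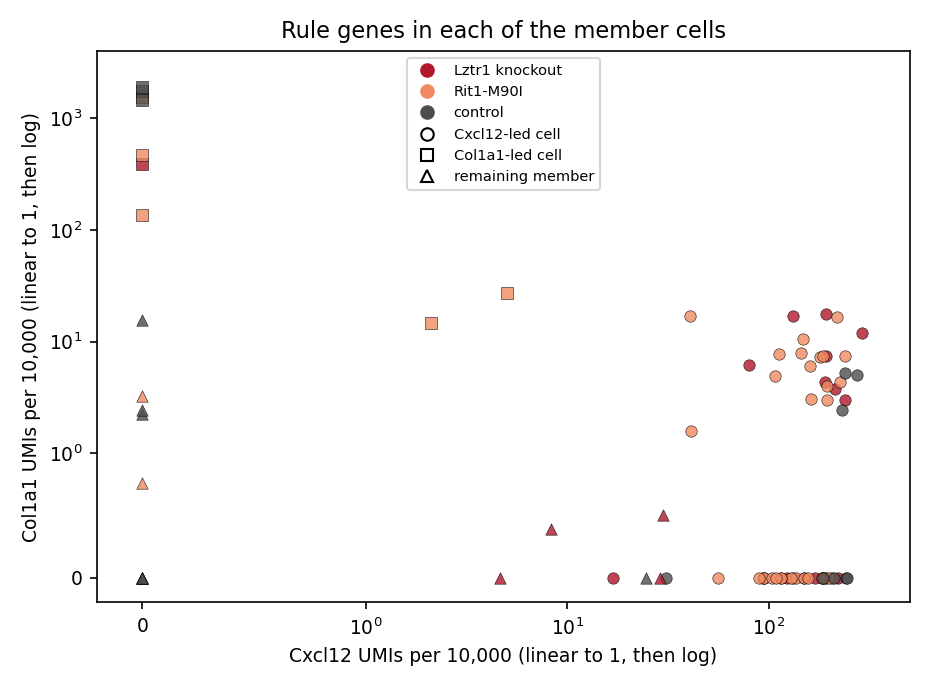
Cxcl12 (x axis) and Col1a1 (y axis) UMIs per 10000 UMIs in each of the 81 members, both axes linear to 1 and logarithmic above; colour gives the library and shape the group. The 56 Cxcl12-led cells lie at 16.8 to 290.3 Cxcl12 UMIs per 10000, and 7 of the 9 Col1a1-led cells have no Cxcl12 UMI.

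The other 16 members, 4 in the Lztr1 knockout, 4 in Rit1-M90I and 8 in the control, comprised the 7 endothelial ones and 9 mesenchymal ones under the 1% line. Of these 9, 3 Lztr1 knockout cells of 19859 to 28321 UMIs held 21 to 82 Cxcl12 UMIs beside 4 to 88 UMIs of the carbonic anhydrase Car2. Deep cells of the control and Rit1-M90I, of 40171 and 39207 UMIs, held 9 and 3 Col1a1 UMIs beside 104 and 83 UMIs of Car1, an erythroid carbonic anhydrase. The blood gene Ptprc (CD45) had a UMI in 8 of these 16 members, 4 of the 56 Cxcl12-led and 2 of the 9 Col1a1-led cells. A doublet caller marked 4 of the 81 members, 1 of them Cxcl12-led, and 3.97% of all kept barcodes. Whether the 16 cells are mixtures or carry free RNA was not tested.

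**Figure D2:**
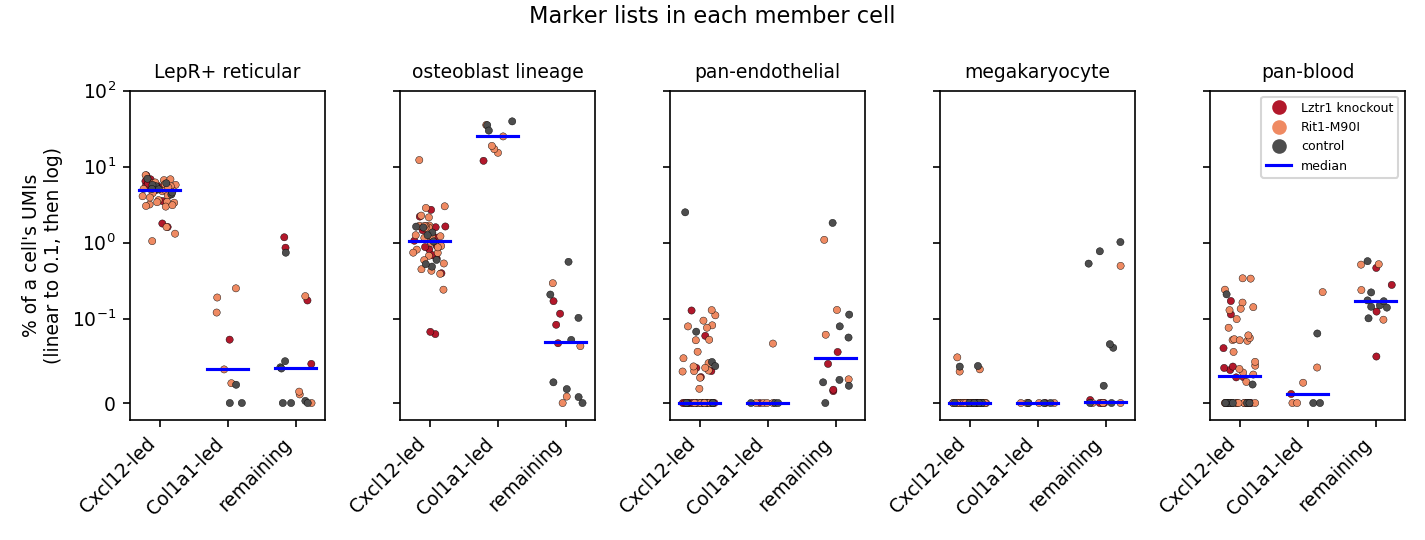
Share of each member's UMIs (y axis, %, linear to 0.1 and logarithmic above) from 5 marker lists, with 1 point per cell, coloured by library, and the median as a blue line. LepR+ reticular markers take 1.04% to 7.70% of the UMIs of Cxcl12-led cells, osteoblast markers lead in Col1a1-led cells, and the megakaryocyte markers stand out in 4 of the remaining cells.

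The Cxcl12-led cells carried the whole set of LepR+ reticular markers. All 18 markers on that list had UMIs, and 17 of the 18, all but Angpt1, were at least 4-fold higher than in other kept cells, beside 954 of 4858 genes (19.6%) overall. The list holds Cxcl12 and Lepr, which the rule used, and the 1% line used the other 16, so nothing is read from that count. Cxcl12 and Lepr took 1.71% of the UMIs of Cxcl12-led cells and the other 16 took 2.80%, against 0.0566% for the 16 in Col1a1-led cells and 0.0146% in other kept cells. In all lists below, a gene near 0 in other kept cells was compared only where it reached 50 CPM in the group described, and was then past the 4-fold line. Such counts therefore describe which genes reached that level. Several of those lists also hold stroma markers that the 1% line used, some of which are named below. Cxcl12, on chromosome 6 (117168535 to 117181367, mm10), ran from 16.8 to 290.3 UMIs per 10000 in single cells, with a median of 166. It reached 14996 CPM (95% Poisson interval 14384 to 15627), and stood at 2.64 CPM in other kept cells. Such intervals cover counting error only.

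Lepr had a UMI in all 56 Cxcl12-led cells. With every cell thinned to 1000 UMIs, 85.7% of them and 0.0406% of other kept cells had a Lepr UMI; without thinning the shares were 100% and 0.254%, at median depths of 2489 and 7374 UMIs. Cxcl12 itself gave 100% and 0.279% thinned. Igfbp5, which binds insulin-like growth factors, had a UMI in all 56 cells, from 3.07 to 397 UMIs per 10000, and pooled to 10892 CPM against 2.12 CPM in other kept cells. No Igfbp5 UMI was counted in the 9 Col1a1-led cells. Set against the limit of 3 UMIs over that group, Igfbp5 was at least 199-fold higher in Cxcl12-led cells.

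Transcription factors known to specify these cells were there too, although some of them helped to choose the cells. Ebf3, which keeps the marrow cavity from filling with bone, had UMIs in 49 of the 56 Cxcl12-led cells, at 809 CPM against 0.177 CPM in other kept cells. Foxc1, needed for Cxcl12-abundant reticular cells, stood at 683 against 0.144 CPM and was found in 45 cells. Ebf1, shared with B cells, stood at 1392 against 16.0 CPM, Runx1, a blood factor, at 1154 against 132 CPM, and Runx2, of bone, at 391 against 70.9 CPM. Of 16 mesenchymal transcription factors all had UMIs and 11 of 13 with enough expression to compare were 4-fold higher, beside 19.6% of all genes compared. Of this list, Ebf3, Foxc1, Snai2, Runx2 and Sp7 were among the stroma markers by whose share these cells were chosen. Nothing is therefore read from that count.

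Niche factors, the secreted signals by which stroma feeds blood formation, were the next group: 21 of 24 listed genes had UMIs and 16 of 17 compared, Cxcl12 among them, were 4-fold higher than in other kept cells, beside 19.6% of all genes. Kitl, Cxcl14, Il7, Angpt1 and Spp1 also counted toward the 1% line, so nothing is read from that count. Kitl was found in 51 of 56 Cxcl12-led cells, at 1684 CPM (1483 to 1904) against 0.414 CPM. Cxcl14, a chemokine, stood at 1326 against 0.320 CPM, and Csf1, the growth factor of macrophages, at 464 CPM, 18.6-fold higher (14.4 to 23.5). Il7, which lymphoid progenitors need, was lower and patchier, with a UMI in 17 cells and 159 CPM (102 to 237). Bmp6, Igf1, Vegfc and Bmp4 stood at 438, 351, 318 and 265 CPM, each under 1.2 CPM in other kept cells.

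Not all factors credited to the niche were present. Thpo, Il6 and Pdgfb had no UMI in 150839 UMIs of Cxcl12-led cells, which allows up to 19.9 CPM. Angpt1, a ligand of the Tie2 receptor, was 3.72-fold higher (2.33 to 5.64) than in other kept cells, at 146 against 39.2 CPM, the only compared niche gene that missed the 4-fold line. Gas6, a ligand of the TAM receptors that is on the reticular list, stood at 1737 against 0.436 CPM. The vascular adhesion molecule Vcam1, which retains progenitors, stood at 1525 against 3.55 CPM in 52 of 56 cells, and is also on the sinusoidal and macrophage lists used here.

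**Figure D3:**
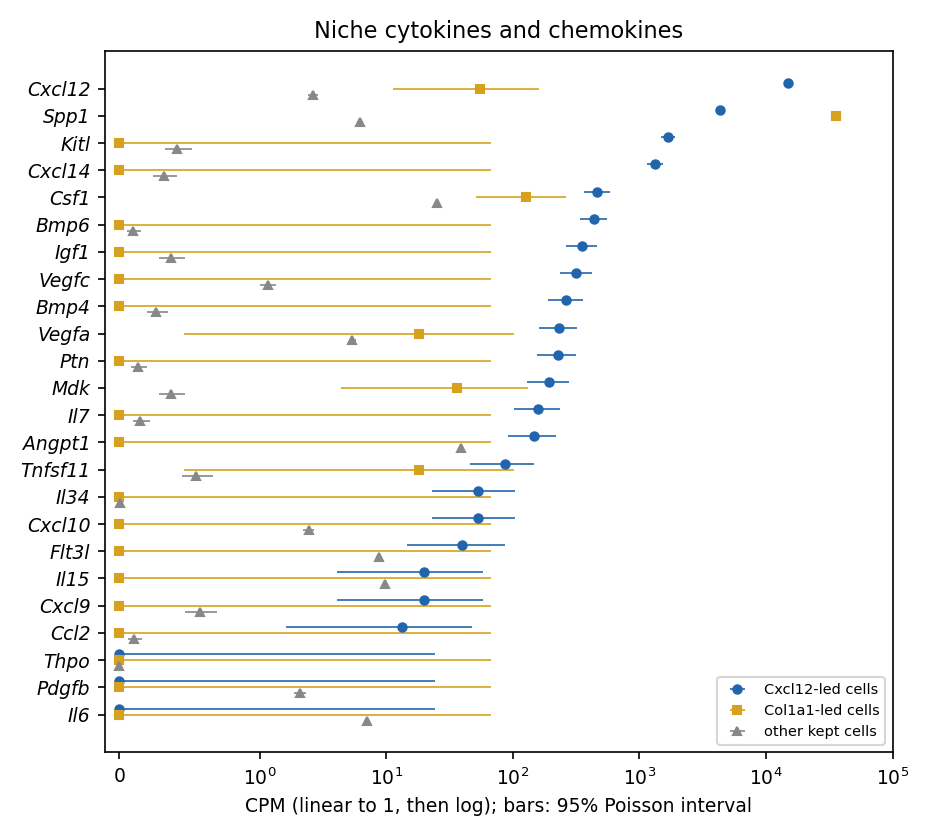
CPM (x axis, linear to 1 and logarithmic above) of 24 niche cytokines and chemokines in Cxcl12-led cells, Col1a1-led cells and other kept cells, with 95% Poisson intervals for counting error as bars. Kitl (1684 CPM) and Cxcl14 (1326 CPM) in Cxcl12-led cells have no UMI in Col1a1-led cells, whose 54796 UMIs allow up to 54.7 CPM, while Spp1 is higher in the Col1a1-led cells.

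The same Cxcl12-led cells carried genes of fat and of bone. Of the genes given here, Adipoq, Lpl, Ibsp, Bglap, Bglap2 and Dmp1 were among the stroma markers of the 1% line. Adipoq, the adipocyte hormone adiponectin, had UMIs in 47 of 56 cells and lipoprotein lipase Lpl in 46, with 41 cells holding both, against 0.0203% of other kept cells. Ibsp, the bone sialoprotein of mineralising matrix, had UMIs in 45 cells, at 3785 CPM against 0.724 CPM, and 36 cells held both Adipoq and Ibsp. The adipogenic regulator Pparg was low, with UMIs in 16 cells at 133 CPM. Mature bone genes were scarce: Bglap (osteocalcin) was found in 3 cells and Dmp1, of osteocytes, in 1. Bglap and Bglap2 are near-identical, so their split is uncertain.

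Extracellular matrix was a further shared trait. All 10 basement membrane genes compared and 15 of 16 interstitial matrix genes were 4-fold higher in Cxcl12-led than in other kept cells, beside 19.6% of all genes. Col1a1 and Col1a2 are on the interstitial list, as are Col3a1, Col6a1, Dcn and Lum, which the 1% line used. Fbn1 and the other fibroblast genes counted toward that line as well. Among them Mgp, an inhibitor of calcification, stood at 2592 against 1.18 CPM, Bgn (biglycan) at 1704 against 0.414 CPM, Fbn1 (fibrillin) at 1021 against 0.641 CPM and Col4a1, of basement membranes, at 862 against 0.895 CPM. Serping1, the C1 inhibitor of the complement system, stood at 2387 against 0.304 CPM and was found in 53 of 56 cells. Fibroblast genes were partial: 6 of 10 had UMIs, while Dpt, Pi16, Mfap5 and Clec3b, of connective tissue fibroblasts, had none. Of 10 pericyte and smooth muscle markers 4 had UMIs: Notch3 at 265 against 0.182 CPM, Tagln at 26.5 CPM, and Acta2 and Cspg4 at 6.63 CPM, a single UMI each. The other 6, Myh11, Rgs5, Mcam, Cnn1, Kcnj8 and Des, had none.

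Proliferation genes were low. Mki67, a marker of cycling cells, had a UMI in 1 of 56 Cxcl12-led cells (1.79%, exact interval 0.0452 to 9.55), against 47.8% of other kept cells, which were deeper; thinned to 1000 UMIs the shares were 1.79% and 16.6%. By level, Mki67 stood at 26.5 against 304 CPM and Top2a at 39.8 against 356 CPM. Of 14 S phase and mitosis genes, 7 were at least 4-fold lower than in other kept cells and none was 4-fold higher, against 241 of 4858 genes (4.96%) lower overall. Of 9 listed genes of MHC class I and II 6 had UMIs, and none of the 5 compared reached the 4-fold line on the log2(CPM + 10) scale. H2-K1 and H2-D1 of class I, which can share reads, were higher and just under that line, at 2546 against 646 CPM and 2645 against 655 CPM. Of class II, Cd74 stood at 13.3 against 82.9 CPM and H2-Eb1 at 6.63 against 14.3 CPM, and H2-Aa, H2-Ab1 and Ciita had no UMI.

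Blood transcripts were not absent from these cells. Pan-blood markers took 0.0689% of the UMIs of Cxcl12-led cells and 0.342% in other kept cells, and all 10 of the list had UMIs. By library the Cxcl12-led value was 0.0357% in the Lztr1 knockout, 0.0929% in Rit1-M90I and 0.0249% in the control. The deepest Cxcl12-led cell, a Rit1-M90I cell of 12699 UMIs, had 0.339% and so weighs heavily in the Rit1-M90I value. The control value rests on few of 20102 UMIs. Neutrophil markers took 0.107% against 0.782% and plasma cell markers, mostly immunoglobulins, 0.139% against 1.41%. Their part in the levels above was not tested. Of 11 macrophage markers 4 had UMIs in Cxcl12-led cells, Vcam1, Csf1r, Mertk and Hmox1, while the defining C1qa, C1qb, C1qc and Adgre1 had none. Of 23 pan-endothelial markers 10 had UMIs, and 2 of the 6 compared were 4-fold higher, Fabp4 at 749 against 0.365 CPM and Ramp2 at 59.7 against 0.431 CPM. All 113 Fabp4 UMIs lay in 1 control cell, and without it Fabp4 stood at 0 CPM. Cdh5, Tek, Tie1 and Cldn5 had no UMI in Cxcl12-led cells.

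The 9 Col1a1-led cells were of a different make. Col1a1 and Col1a2, which the rule used, took 15.3% of their UMIs. The other 13 osteoblast lineage markers took 9.17%, against 1.29% in Cxcl12-led cells and 0.00809% in other kept cells. All 15 were 4-fold higher than in other kept cells, beside 586 of 4211 genes (13.9%) in all, but the 1% line used these 13 as well, so nothing is read from that count. Col1a1, on chromosome 11 (94936224 to 94953042, mm10), stood at 87762 CPM and Col1a2 at 64968 CPM, against 2.59 and 2.83 CPM in other kept cells. Sparc (osteonectin) stood at 24856 CPM, Spp1 (osteopontin) at 35769 CPM, Bglap at 14216 CPM and Ifitm5, a bone-specific membrane protein, at 493 CPM. The osteoblast transcription factor Sp7 stood at 401 CPM and was found in 8 of 9 cells.

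Between the kinds of stroma, 794 of 4928 genes (16.1%) were at least 4-fold higher in Cxcl12-led cells and 173 (3.51%) in Col1a1-led cells. Of the 24 niche genes, 14 were 4-fold higher in Cxcl12-led cells and 1, Spp1, in Col1a1-led cells. Of the 15 osteoblast markers, 9 were 4-fold higher in Col1a1-led cells. The niche list holds Cxcl12 and the osteoblast list Col1a1, the genes that split the groups, so their direction was fixed beforehand. The other listed genes are a description of the same cells. Bgn and Tnc (tenascin C) had Cxcl12-led over Col1a1-led ratios of 0.943 (0.745 to 1.20) and 1.03 (0.805 to 1.34), with counting intervals that include 1. Dcn (decorin) and Lum (lumican), small proteoglycans of collagen fibres, stood at 385 and 113 CPM in Cxcl12-led cells, against 2591 and 839 CPM in Col1a1-led cells.

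The Col1a1-led cells were not uniform. In 6 of them Col1a1 had 352 to 1630 UMIs, Mmp13 at most 1 and Spp1 at most 109, and these came from all 3 libraries. The other 3, all from Rit1-M90I, had only 7 to 56 Col1a1 UMIs beside 568 to 679 of Spp1 and 57 to 96 of Mmp13, a collagenase of late bone and cartilage cells. In 1 of these 3, 80 UMIs of Dmp1 were counted. The Cxcl12-led cell with the most Spp1, also from Rit1-M90I, held 574 Spp1 UMIs beside 24 Cxcl12 and 10 Col1a1, and without it Spp1 in Cxcl12-led cells was 587 and not 4369 CPM. That these cells came from the 1 Rit1-M90I library cannot be told apart from the genotype.

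The share of members was counted in each library, without a replicate of any genotype, so the intervals cover the counting of barcodes and test no genotype. Members made up 0.826% of kept barcodes in the Lztr1 knockout (exact interval 0.505 to 1.27), 0.428% in Rit1-M90I (0.309 to 0.578) and 0.253% in the control (0.152 to 0.394). The ratio over the control was 3.27 (1.75 to 6.12) for the Lztr1 knockout and 1.69 (0.986 to 2.91) for Rit1-M90I. For Cxcl12-led cells the shares were 0.619%, 0.336% and 0.106%, and the ratios 5.82 (2.47 to 13.7) and 3.16 (1.46 to 6.84). The Lztr1 knockout library had the fewest barcodes and the highest median depth, 10140.5 UMIs per kept cell against 6885 in Rit1-M90I and 7021 in the control. The part of depth and of cell recovery in these shares was not tested.

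**Figure D4:**
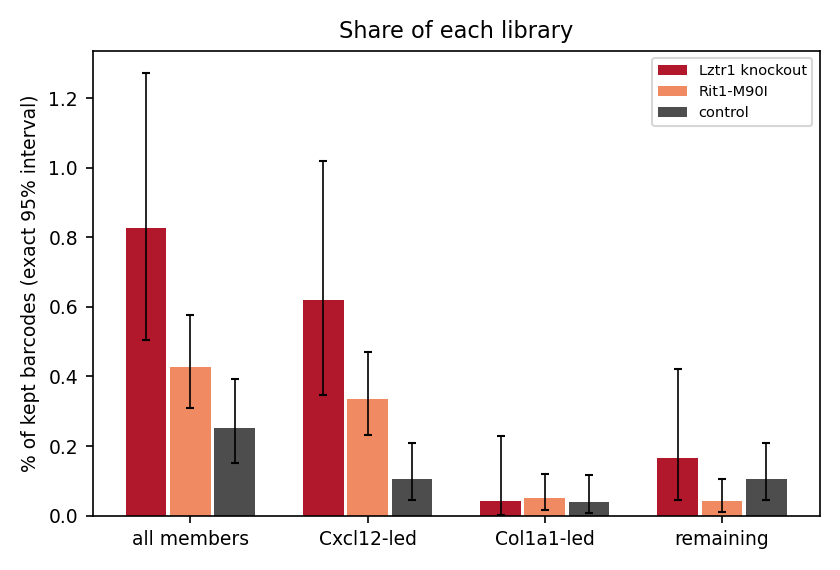
Share of each library's kept barcodes (y axis, %) in all members, Cxcl12-led, Col1a1-led and remaining members, as bars from 0 with exact 95% intervals, for the Lztr1 knockout, Rit1-M90I and the control. The Cxcl12-led share is 0.619%, 0.336% and 0.106%, while the Col1a1-led intervals overlap throughout.

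Within all mesenchymal members, 20, 39 and 15 cells, levels differed from those within Cxcl12-led cells. Cxcl12-led cells gave 39224 of the 124320 mesenchymal UMIs in the Lztr1 knockout, 91513 of 162223 in Rit1-M90I and 20102 of 93301 in the control. The part of this mix of cells in the pooled ratios was not tested. Cxcl12 had 6918 CPM in Lztr1 knockout members, 7360.2 CPM in Rit1-M90I ones and 4137 CPM in control ones, log2 ratios of 0.74 and 0.83 over the control. Within Cxcl12-led cells the ratios were -0.066 and -0.52, at 17769.7 and 13014 CPM, against 18605 CPM in the control. Col1a1 also changed sign, at log2 -3.06 and -1.04 in all mesenchymal members and 1.78 and 1.30 in Cxcl12-led cells. The latter rest on 21, 35 and 3 UMIs in the Lztr1 knockout, Rit1-M90I and the control, in cells chosen for Cxcl12 above Col1a1. In all mesenchymal members 1 cell held 364 of 387, 1558 of 2065 and 1630 of 2436 Col1a1 UMIs in the same order. The median log2 ratio of 4509 and 4587 genes in mesenchymal members was 0.00082 and -0.057, and no comparison was made in endothelial members, of which the Lztr1 knockout had none.

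Core genes of the Cxcl12-led cells were compared next. The control had 8 such cells, under the 10 per library set for a genotype comparison, so these ratios are a description. Lepr had 1861 CPM in Lztr1 knockout cells, 2196 CPM in Rit1-M90I cells and 2338 CPM in control cells, and Kitl had 2014, 1552 and 1642 CPM in the same order. The ratios over the control, 0.796 (0.544 to 1.17) and 0.939 (0.681 to 1.32) for Lepr and 1.23 (0.808 to 1.90) and 0.945 (0.643 to 1.43) for Kitl, had counting intervals that include 1. Igfbp5 was 1.67-fold higher in the Lztr1 knockout, with 14328 CPM (13168 to 15563) there and 8556 CPM (7325 to 9935) in control cells. In Rit1-M90I it was 1.16-fold higher (0.985 to 1.37), at 9933 CPM. Single cells overlapped: Igfbp5 ran from 3.07 to 280.0 UMIs per 10000 in the Lztr1 knockout, 8.42 to 397 in Rit1-M90I and 17.0 to 267 in the control.

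The genes with the highest ratio over the control in mesenchymal members of the Lztr1 knockout were Spp1, Ccn2 and Ackr4, and in Rit1-M90I Spp1, Mmp13 and Dmp1. Ccn2, a matrix protein induced by mechanical load and TGF-beta, had 32 UMIs in 7 of 15 Cxcl12-led cells of the Lztr1 knockout and 64 in 18 of 33 of Rit1-M90I, against 3 in 1 of 8 of the control. Ackr4, a scavenging receptor for CCL19 and CCL21, had 30 UMIs in 12 of 15 and 45 in 21 of 33 cells, against 3 in 3 of 8. Their ratios over the control in Cxcl12-led cells were 5.47 (1.71 to 27.9) and 4.69 (1.53 to 23.3) for Ccn2 and 5.12 (1.59 to 26.2) and 3.29 (1.06 to 16.6) for Ackr4. Both genes were picked for a high Lztr1 knockout ratio in mesenchymal members, which include these cells. The Rit1-M90I ratios use the same 3 control UMIs. These intervals therefore test nothing. The cell with most Ccn2 held 14 of the 32 UMIs in the Lztr1 knockout and 23 of the 64 in Rit1-M90I, and no cell held more than 6 and 8 of Ackr4. In the Lztr1 knockout 109 of the 126 mesenchymal Spp1 UMIs, and in Rit1-M90I 80 of the 89 Dmp1 UMIs, lay in 1 cell.

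The genes with the lowest ratio, Fabp4, Scd1 and Serpinf1 in the Lztr1 knockout and Fabp4, Acsl1 and Scd1 in Rit1-M90I, also turned on few cells. A single Cxcl12-led control cell of 4562 UMIs held all 113 Fabp4 UMIs of the mesenchymal members, with 100 of Lpl, 44 of G0s2, 36 of Acsl1, 35 of Adipoq, 35 of Car3 and 9 of Plin1, the lipid droplet coat protein of adipocytes. It held 14 Cxcl12 UMIs as well. Fabp4 is also on the pan-endothelial list, on which this cell has the highest share of any Cxcl12-led cell, 2.50% of its UMIs. Lpl had 1581 CPM in Cxcl12-led cells of the Lztr1 knockout, 2437 CPM in those of Rit1-M90I and 7909.7 CPM in those of the control, or 3797 CPM without this cell. Adipoq had 1529.7, 1147 and 3333 CPM in the same order, or 2059 CPM in the control without it. Without this cell the log2 ratios of Igfbp5 over the control were 0.45 and -0.079, so its direction in Rit1-M90I turned, and those of Cxcl12 were -0.38 and -0.83. Serpinf1, of osteoblasts, had 2 UMIs in the Lztr1 knockout, which had 1 Col1a1-led cell, and 54 in the control, which had 3.

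**Figure D5:**
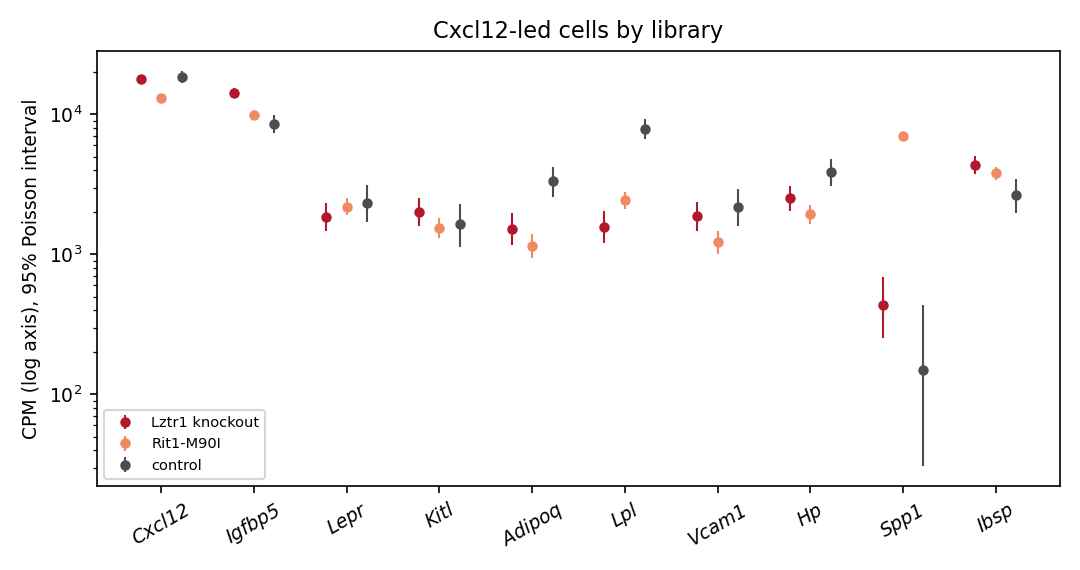
CPM (y axis, logarithmic) of 10 genes in Cxcl12-led cells of the Lztr1 knockout (15 cells), Rit1-M90I (33) and the control (8), with 95% Poisson intervals for counting error. Lpl and Adipoq are highest in the control, where 1 cell held 100 of 159 Lpl UMIs, and 574 of 639 Spp1 UMIs in Rit1-M90I lay in 1 cell.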

How the data were processed

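The deposited files hold UMI counts of each gene in each barcode, whole numbers without normalization that Cell Ranger 6.1.1 wrote, per the file headers. The submitters' processing notes name mm10 as the build and list Seurat 4.1.0 without a role. How barcodes were called as cells is not given in the sources. The kit counts 3' ends (10x v3, per the labels' protocols), so levels were compared between groups of cells and not between genes. The deposited counts hold 3014 barcodes and 30398349 UMIs (Lztr1 knockout), 11573 and 88560148 (Rit1-M90I), and 8476 and 67541728 (control), over 32285 genes. The cell filter removed 19.6%, 15.2% and 11.2% of barcodes.

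UMIs were summed per group and library and given as CPM with exact 95% Poisson intervals, shares with Clopper-Pearson intervals and ratios of shares with log intervals, all for counting error only. Genes of at least 50 CPM in either group were compared by log2 with a pseudocount of 10 CPM; in all mesenchymal members a call over other cells also needed the same sign in each library with at least 5 cells. No p-value was computed, since each genotype is 1 library. To compare shares of cells, each was thinned to 1000 UMIs, which left out none. A count of 0 allows up to 3 UMIs. Doublets were called with scrublet in scanpy 1.11.5, marked and kept. TMM factors of edgeR 4.0.16 were an alternative scaling. Gene positions come from the GENCODE annotation of GRCm38. The calling step recovered known changes in simulated data.

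Named genes are the rule genes, Lztr1 and Rit1, the highest by ratio in each group, the highest of each gene list and, for genotype, the 3 highest and 3 lowest ratios. Other genes named, and the Cxcl12-led and Col1a1-led groups, were chosen after values were seen. The members and lists were chosen with earlier results of these data known. Near-identical copies (Bglap, H2 and immunoglobulin genes) are uncertain.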

Additional observations from a re-analysis of the deposited data

Results flagged for a closer look

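Stroma was also present outside the cells analysed: 22 barcodes that failed the cell filter met the limits on marker and blood genes, 2 in the Lztr1 knockout, 9 in Rit1-M90I and 11 in the control. Of these, 14 had fewer than 1000 UMIs and 14 had more than 10% mitochondrial UMIs. In 14 of them Cxcl12 outnumbered Col1a1, 15 had at least 1% of UMIs from the stroma markers outside the rule, and 0 had a Cdh5 or Kdr UMI. They are not counted in the shares above, and unlike the members they were most numerous in the control.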

How the results depend on the processing

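The member share over the control stayed between 3.10 and 4.52 for the Lztr1 knockout and between 1.60 and 2.65 for Rit1-M90I under the 5 other membership choices. None of these choices loosened the cell filter. The barcodes that failed it but met the marker limits, most numerous in the control, are therefore outside these ranges. The endothelial share was 0 with at least 5 marker UMIs and 0 with at least 1% stroma markers, and 4.84% to 11.5% without 1 library each. By markers outside the rule, 5 of the 7 endothelial cells were also endothelial. These 5 include the control cells with Pf4, so the overlap is no count of true endothelial cells. Counts of genes moved as follows. Endothelial over mesenchymal at 2-fold, 874 genes, became 1479 without Ptprc-positive members, 472 with the split on other markers, 1570 by per-cell mean, 542 with TMM, 1540 with no low filter and 730 to 2146 without 1 library each (2146 without the control). Mesenchymal over endothelial, 1101, became 3592 with no low filter and 1136 to 1589 without 1 library each. Endothelial over other kept cells at 4-fold, 150, became 312 without Ptprc-positive members, 40 with the other split, 292 with a pseudocount of 1 CPM, 660 by per-cell mean, 63 with TMM and 150 to 974 without 1 library each. Mesenchymal over other kept cells, 460, became 735 without Ptprc-positive members, 766 with at least 1% stroma markers, 708 by per-cell mean and 385 to 510 without 1 library each. The requirement of at least 5 marker UMIs left no endothelial cell and so no endothelial counts.

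By per-cell mean, the log2 ratios over the control in mesenchymal members, Lztr1 knockout then Rit1-M90I, were 0.24 and 0.11 for Cxcl12, 0.91 and 0.77 for Igfbp5, and -3.89 and -2.54 for Col1a1. In Cxcl12-led cells only, an alternative added after seeing the data, they were -0.066 and -0.52 for Cxcl12, 0.74 and 0.22 for Igfbp5, and 1.78 and 1.30 for Col1a1. Shares of mesenchymal members with a UMI, unthinned against thinned, were 86.5% against 66.2% for Lepr, 73.0% against 59.5% for Kitl and 67.6% against 51.4% for Adipoq. Of 900 alternative values of named gene ratios, 567 kept within the spread of the first value, 331 moved further without turning a ratio of 2-fold or more, and 2 turned such a ratio round without the control library, Fabp4 at -0.027 and Acsl1 at -0.56 on the log2 scale over other kept cells (up to 5.65 and 2.07 without another library). In all 35 values had the other sign, and 33 of these belonged to ratios of at most 0.83 on the log2 scale, Lztr1, Kdr, Mmrn1, Nrgn and Adgrl4 among them. The cause was not tested. No paired analysis was possible because each genotype is 1 library and the labels give no replicate numbers. With 8 control Cxcl12-led cells of 20102 UMIs, a gene needs 149 CPM to reach 3 UMIs.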

Other observations

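Genes of the RAS to ERK pathway, in which RIT1 acts, are given here for Cxcl12-led cells, in which 19.6% of all genes compared were at least 4-fold higher than in other kept cells. Of 11 genes on the list of RIT1, LZTR1 and RAS genes all had UMIs, 7 reached a level that could be compared and 1 was 4-fold higher, Rras, a RAS-related GTPase, at 152 against 4.43 CPM, a share near that of all genes. Of 15 ERK feedback and output genes 6 could be compared and 3 were 4-fold higher, Spry1 and Spry4 being compared only through their level in Cxcl12-led cells. These 3, Spry1 at 252 against 1.61 CPM, Spry4 at 99.4 against 1.23 CPM and Spred1 at 126 against 22.1 CPM, encode inhibitors of the pathway. Myc, on the same list, stood at 6.63 against 116 CPM. By library the list took 0.0739% of Cxcl12-led UMIs in the Lztr1 knockout, 0.0776% in Rit1-M90I and 0.0547% in the control. The control value comes from 8 cells with 20102 UMIs in all. It thus rests on few UMIs, and no difference is read from these shares.

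Of 12 Notch pathway genes 5 could be compared and 3 were 4-fold higher, and of 8 receptors of TGF-beta and BMP 5 could be compared and 4 were 4-fold higher, beside 19.6% of all genes. The receptor Notch3 and its targets Hes1 and Heyl stood at 265, 504 and 79.6 CPM in Cxcl12-led cells, against 0.182, 2.97 and 0.0276 CPM in other kept cells, and the co-receptor Tgfbr3 at 517 against 12.1 CPM. All of these named genes were compared only through their level in Cxcl12-led cells, so nothing is read from the counts. Of 20 interferon-stimulated genes 7 could be compared, and 2 were 4-fold higher, again near the share of all genes, Ifitm3 at 1147 against 206 CPM and Rtp4 at 113 against 8.21 CPM, while Ly6e stood at 278 against 779 CPM. Genes named here beyond the 4 highest of a list were chosen after their values were seen.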
